A study of Mus musculus with 54 samples.

Results

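Hlf, Dbp, Tef, Nr1d1, Nr1d2, Per1, Per2, Per3, Ciart and Bmal1 are 10 genes of the circadian clock and its output, and they were followed here through every library of a study of motor neurons in a mouse model of amyotrophic lateral sclerosis (ALS). They were taken by symbol and Ensembl identifier from the 55354 mouse genes of the deposited tables, and all 10 were among the 18493 genes that passed the filter on low counts. The members were chosen by measured values, since the set was drawn up around Hlf, the 1 gene (0.00541% of those tested) that passed the test between genotypes in the hypoglossal nucleus at postnatal day 56. The values of that comparison are therefore given as a description with no test, and the tests below use other libraries or other contrasts.

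The study profiled pools of motor neurons cut out by laser capture microdissection, which excises chosen cells from a tissue section by laser, and made cDNA from their polyadenylated RNA with Smart-seq2. In the brainstem the neurons were cut from the nuclei that move the eye (CN3/4, oculomotor with trochlear) and the tongue (CN12, hypoglossal) and from that of the vagus nerve (CN10), and outside the brainstem from lumbar spinal cord (SC). The mice were either mSOD, which carry the human SOD1G93A transgene, or wild-type littermates, and the ages in postnatal days were P56, labelled presymptomatic, and P112, symptomatic. These 3 factors gave 16 groups and 54 libraries, 28 of them wild type, with 5 libraries in both genotypes of SC at P56 and in wild-type SC at P112, and 3 in each other group. The transgene is human SOD1 under its own promoter and is active in all cells, so it is not restricted to motor neurons. The number of cells and animals behind a library, the time of day at which mice were killed and the light schedule are not given in the sources used here.

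The clock is a feedback loop of transcription. Bmal1, with its partner Clock, encodes the activator that binds E-boxes and switches on the Period genes Per1, Per2 and Per3, the nuclear receptors Nr1d1 and Nr1d2 (Rev-erb alpha and beta), the repressor Ciart and the output factors Dbp, Tef and Hlf. The Period proteins and Ciart repress that activator, the Rev-erbs repress Bmal1, and Dbp, Tef and Hlf bind D-boxes in later targets. In most tissues these transcripts oscillate over the day, with Bmal1 in antiphase to Dbp, Nr1d1 and Ciart.

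The upstream sequences of Ciart, Per3 and Hlf are shown because Ciart and Per3 carried the largest tested differences between wild-type nuclei and Hlf gave the set its origin. They are the 250 bases before the annotated start in RefSeq, build GRCm38.p6, all on the minus strand of the chromosome and printed 5′ to 3′, with matched motifs in capitals. The Ciart window (chr3:95882229-95882478) holds 3 copies of the E-box CACGTG, first bases at −116, −58 and −44 from the start. The Per3 window (chr4:151044666-151044915) holds the D-box TTATGTAA at −205 and −158. In the Hlf window (chr11:90390918-90391167) the only match is the cAMP-response element TGACGTCA at −9.
Ciart: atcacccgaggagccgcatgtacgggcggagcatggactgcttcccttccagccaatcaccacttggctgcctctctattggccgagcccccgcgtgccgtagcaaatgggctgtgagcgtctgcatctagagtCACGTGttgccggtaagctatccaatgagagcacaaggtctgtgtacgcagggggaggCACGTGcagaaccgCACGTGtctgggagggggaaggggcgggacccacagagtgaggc
Per3: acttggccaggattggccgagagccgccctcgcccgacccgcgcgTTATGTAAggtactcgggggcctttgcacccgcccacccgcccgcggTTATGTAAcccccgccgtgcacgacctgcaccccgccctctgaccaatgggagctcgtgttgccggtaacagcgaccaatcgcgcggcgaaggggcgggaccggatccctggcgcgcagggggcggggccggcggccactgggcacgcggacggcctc
Hlf: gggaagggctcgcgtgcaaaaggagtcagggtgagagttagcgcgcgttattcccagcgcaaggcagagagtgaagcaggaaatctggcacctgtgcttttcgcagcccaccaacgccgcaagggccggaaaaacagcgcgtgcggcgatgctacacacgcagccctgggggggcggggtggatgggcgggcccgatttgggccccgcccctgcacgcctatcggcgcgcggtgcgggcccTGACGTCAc
The table of promoters held 9 of the 10 genes, not Per2. Both strands were searched for CACGTG (found in 6.02% of all 32851 promoters of this length), CACGTT (3.85%), TTATGTAA (0.819%), TTATGCAA (0.694%), TAGGTCA (2.23%), TGGGTCA (3.24%) and TGACGTCA (1.55%). Per1 had CACGTG at −166 and TTATGCAA at −24 in 1 of its 2 windows, Tef had CACGTG in both of its windows, and Nr1d1 had CACGTT at −28. The windows of Dbp, Bmal1 and Nr1d2 had no match. A match is a string of letters in a window and no evidence of binding.

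Library depth ran from 1071477 to 8877994 counts (median 4231342.5). Human SOD1 took 3.95% to 7.94% of the counts in mSOD libraries and at most 0.00459% in wild-type ones, so every genotype label held. The motor neuron markers Chat, Slc18a3, Slc5a7, Isl1, Prph, Nefh, Nefm and Calca had counts in every group, while Isl2 or Mnx1 was at 0 in some CN3/4 and CN10 groups. Levels are given as CPM, counts scaled to the library total after that total was multiplied by the library's TMM normalization factor. The summed level of the motor neuron list was 2078 to 2862 CPM in CN10 and 5649 to 21230 CPM in the other nuclei. Library names carry 1 of 3 prefixes (P6362, P10814 and P11355), called projects here, whose meaning beyond the name is not stated. In the cranial nuclei project and age nearly coincide: all P56 libraries are P11355 and all P112 libraries but 1, in CN12 mSOD, are P10814. SC holds all P6362 libraries. At P56 its wild-type libraries are 2 P11355 and 3 P6362, and all 5 mSOD ones are P6362. At P112 they are 2 P10814 and 3 P6362 in wild type, and 1 of each project in mSOD. Genotype and project are thus partly mixed in SC, and the fit holds a project term.

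Scaled to gene length, Nr1d2 was the most abundant transcript of the set and Per2 the least. On the length-scaled RPKM scale, the median over the 54 libraries was 14.7 for Nr1d2, 10.1 for Tef, 7.56 for Ciart, 4.21 for Nr1d1, 3.92 for Bmal1, 3.07 for Per1, 2.29 for Per3, 1.66 for Dbp, 1.15 for Hlf and 0.571 for Per2. In CPM, Dbp was the lowest, with a median of 0.826 against 2.60 for Per2. Dbp had 0 counts in 11 of the 54 libraries, and its level is thinly measured throughout. Nr1d1 shares 263 of its 3077 exonic bases with Thra on the other strand, and Dbp shares 539 of 2993 with Sphk2. Smart-seq2 does not mark strand, so reads in those stretches cannot be assigned to 1 gene.

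**Figure D1:**
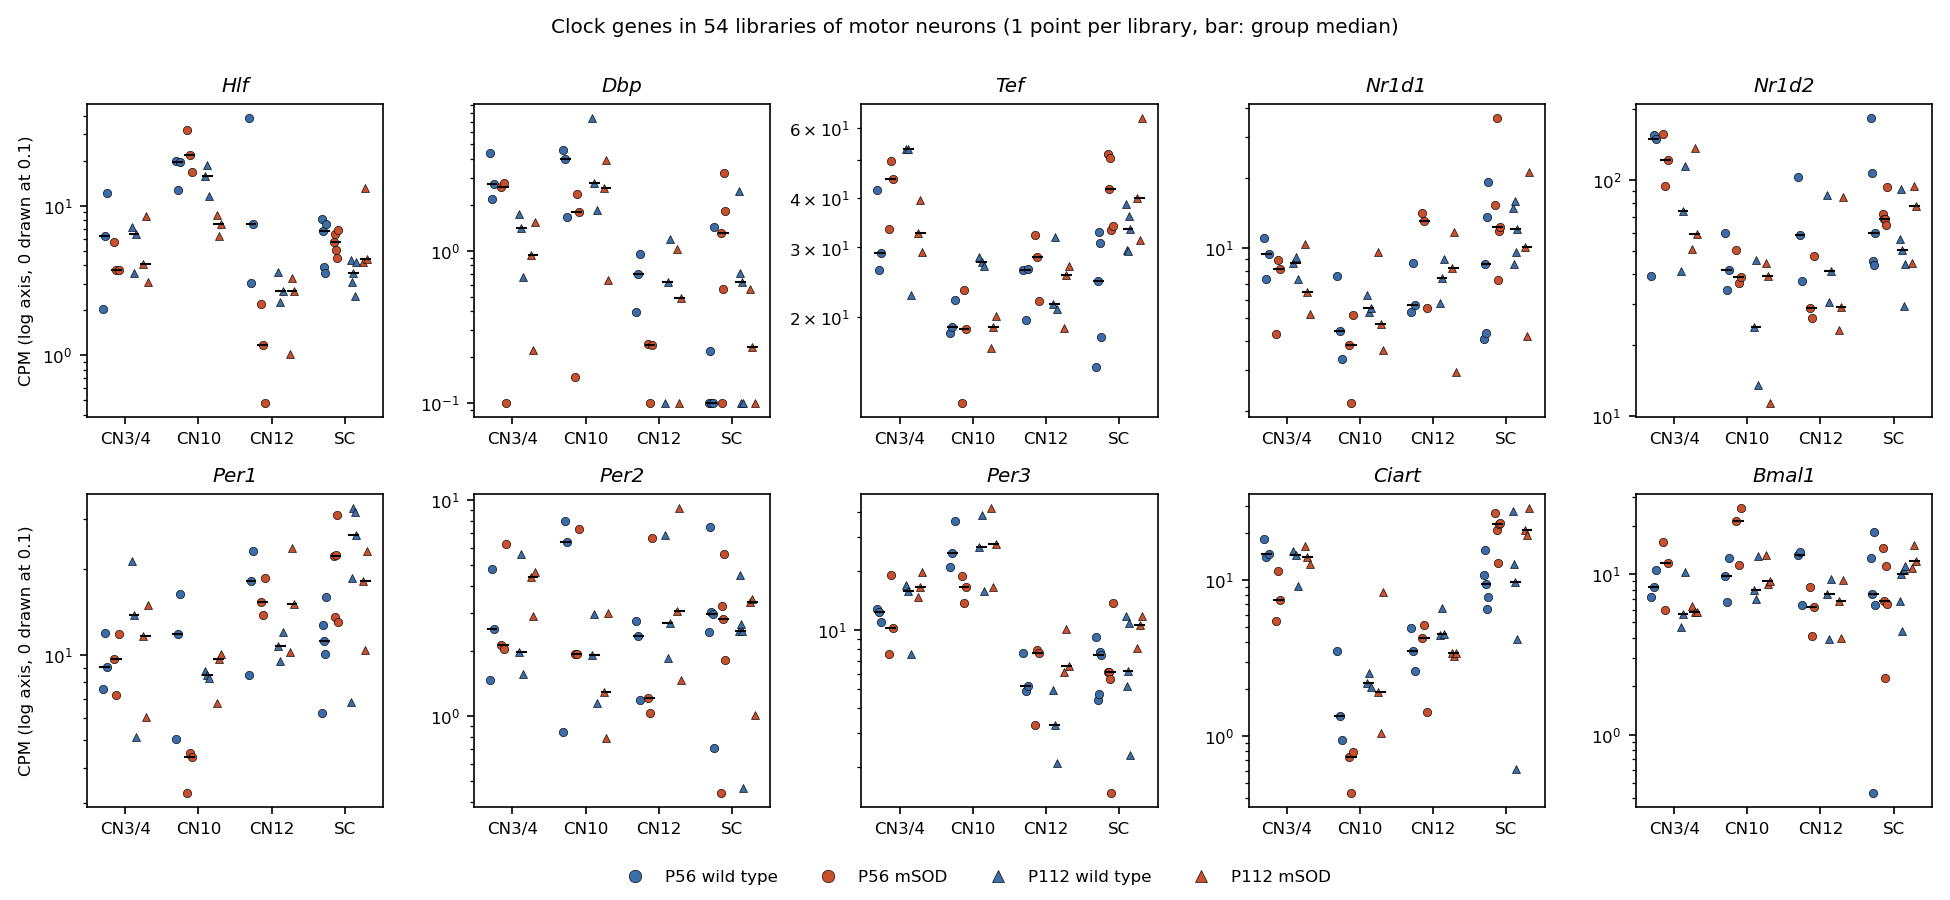
Level of the 10 clock genes in each of the 54 libraries (points, log-scaled CPM axis) by nucleus, age and genotype. Ciart lies low in CN10 and high in CN3/4 and SC, Per3 and Hlf lie high in CN10, and 1 wild-type CN12 P56 library stands above the rest for Hlf at 38.4 CPM.

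In CN12 at P56, the contrast that gave rise to the set, Hlf was at 38.4, 3.04 and 7.58 CPM in wild type and at 2.18, 1.18 and 0.479 CPM in mSOD. The groups did not overlap, but the wild-type mean of 16.3 ± 19.2 CPM (SD, n = 3) rested on 1 library with 195 counts against 13 and 32 in the others, and the lowest mSOD value was 2 counts. The fitted log2 difference was −3.56, and it was −1.93 without wild-type replicate 1. The other output genes did not share a pattern there. Dbp was at 0.394, 0.702 and 0.948 CPM in wild type and 0.243, 0 and 0.239 in mSOD, which is 2 to 4 counts against 0 to 2. Nr1d2 was at 103, 58.5 and 37.4 CPM in wild type and 28.9, 26.1 and 47.6 in mSOD, and Nr1d1 at 5.31, 8.66 and 5.69 against 14.2, 13.1 and 5.51. Bmal1 was at 13.2, 13.8 and 6.40 CPM against 8.25, 4.13 and 6.22. Ciart, Per3, Per1 and Tef had log2 differences between −0.06 and 0.19, and Per2 one of 0.44. Marker sums of other cell types were unequal too. The 12 oligodendrocyte markers summed to 338 to 362 CPM in wild type and 196 to 263 in mSOD, without overlap, while the sums overlapped for 4 inhibitory interneuron markers (12.4 to 42.9 against 1.20 to 23.1), 8 endothelial markers (68.7 to 161 against 37.6 to 92.9) and 12 microglial markers (10.7 to 22.2 against 12.9 to 22.3). Their part in the Hlf values was not tested. In bulk RNA of this kind, fewer cells of a type and less RNA per cell cannot be told apart.

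Outside that contrast, none of the 10 genes passed the test between genotypes in any nucleus at either age. This held in all 7 remaining comparisons of mSOD with wild type (edgeR's quasi-likelihood test, adjusted p under 0.05 over all 18493 genes). The share of all genes called was 0% in CN3/4 P56, 0.0162% in CN10 P56, 0.541% in SC P56, 0% in CN3/4 P112, 0% in CN10 P112, 0.0703% in CN12 P112 and 0.47% in SC P112. DESeq2 also called 0 of 10 in each. An unadjusted p under 0.05 was reached in 6 of the 70 gene and comparison pairs (8.57%), and by 7.08% of all genes in the same comparisons. The median log2 change of the 10 genes ran from −0.45 in CN10 P56 to 0.41 in SC P56, and that of all genes was −0.04 and 0.05 in those comparisons. As an average over the 7 comparisons, where 0.443% of all genes were called, 0 of 10 were called by either tool and 0 had an unadjusted p under 0.05.

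Hlf itself showed no common direction with genotype. In CN10 at P112 it was at 15.9, 18.7 and 11.5 CPM in wild type and at 8.68, 6.30 and 7.51 in mSOD. These groups did not overlap, and the log2 change of −1.04 ± 0.54 (SE) did not pass (unadjusted p = 0.06015, edgeR adjusted p = 1). In CN10 at P56 the order was the other way, with 19.9, 12.8 and 19.7 CPM in wild type and 32.1, 21.7 and 16.7 in mSOD. In CN12 at P112, the same nucleus at the later age, Hlf was at 3.59, 2.27 and 2.704 CPM against 1.02, 3.29 and 2.67, with overlapping groups and a log2 change of −0.52 ± 0.68. In CN3/4 it was at 2.04, 6.29 and 12.2 CPM against 5.68, 3.71 and 3.72 at P56 and at 7.16, 3.53 and 6.46 against 4.09, 8.50 and 3.08 at P112. In SC the wild-type libraries ran from 3.56 to 8.15 CPM at P56 and 2.48 to 4.33 at P112, and the mSOD libraries from 4.44 to 6.87 and 4.20 to 13.2. The mean effect over the 7 comparisons was −0.13 on the log2 scale, with a 95% interval of −0.55 to 0.29.

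The other PAR bZIP factors, Dbp and Tef, also did not pass. Tef came nearest in SC at P56, where wild-type libraries held 14.9, 24.6, 32.8, 30.8 and 17.8 CPM and mSOD libraries 51.7, 42.1, 50.5, 33.1 and 34.0. All 5 mSOD values lay above all 5 wild-type values, yet the log2 change of 0.65 ± 0.25 had an adjusted p of 0.2431 in edgeR's test. The wild-type libraries at 14.9 and 24.6 CPM were P11355, a project with no mSOD library in SC at P56. Within P6362 the values ran from 17.8 to 32.8 CPM in wild type and from 33.1 to 51.7 in mSOD. Over the 7 comparisons Tef ranged from −0.57 to 0.65. Dbp was at 0, 0.220, 0, 0 and 1.43 CPM in SC P56 wild type and at 1.31, 0, 0.561, 3.25 and 1.81 in mSOD, too few counts to tell the groups apart.

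The Rev-erbs had genotype differences that were small beside the scatter of their libraries, and none passed. Nr1d2 ranged from −0.81 to 0.52 on the log2 scale over the 7 comparisons, and its mean effect was 0.00 with an interval of −0.35 to 0.35. Its libraries scattered widely within groups: in CN3/4 P56 wild type they held 39.2, 155 and 149.9 CPM. Its dispersion was 2.701 times the trend at its abundance, at the 97.63th percentile of all genes, while the other 9 members lay between 0.743 and 1.24 times theirs. Nr1d1 ranged from −0.46 to 0.31 with a mean effect of −0.03 (−0.39 to 0.33).

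Among the repressors of the loop, Per1 and Ciart gave the lowest p-values in CN10 and SC. In CN10 at P56, Per1 was at 5.06, 11.9 and 16.4 CPM in wild type and at 3.26, 4.52 and 4.38 in mSOD, without overlap (log2 change −1.44 ± 0.45, unadjusted p = 0.002542, edgeR adjusted p = 0.241). Ciart was at 3.54, 1.34 and 0.949 CPM in the same wild-type libraries and at 0.740, 0.431 and 0.796 in mSOD (log2 change −1.55 ± 0.74, edgeR adjusted p = 0.3379). In SC the Ciart values lay the other way. At P56 they were 10.9, 15.6, 9.49, 6.52 and 7.84 CPM in wild type and 27.2, 21.0, 12.9, 22.8 and 23.1 in mSOD (log2 change 1.39 ± 0.46, edgeR adjusted p = 0.156). At P112 they were 27.9, 12.8, 9.77, 0.619 and 4.18 CPM in wild type and 21.0, 19.5 and 28.9 in mSOD (1.37 ± 0.49, edgeR adjusted p = 0.2958). The groups overlapped at both ages, by 1 mSOD library at P56 and by the highest wild-type library at P112. Marker sums in SC were unequal between genotypes. At P56 the motor neuron sum was 15989 to 21230 CPM in wild type and 9407 to 14561 in mSOD, and the endothelial sum 222 to 688 against 56.3 to 74.0. At P112 the endothelial sum was 145 to 384 CPM against 13.1 to 45.7 and the microglial sum 13.9 to 24.6 against 45.8 to 114, while the motor neuron sum overlapped (8538 to 17202 against 8969 to 9970). Their part in the Ciart and Tef values was not tested.

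The direct test of whether the genotype difference of Ciart was unequal in SC and CN3/4 at P56 gave 2.33 ± 0.69 on the log2 scale, with an unadjusted p of 0.001514 and an edgeR adjusted p of 0.5089. In CN3/4 at P56 the Ciart values were 18.4, 14.1 and 14.7 CPM in wild type and 5.44, 11.5 and 7.45 in mSOD, without overlap. The change of the CN10 difference from P56 to P112 was 2.32 for Ciart (adjusted p = 0.5822) and 1.51 for Per1 (adjusted p = 0.5954). None of the 10 genes passed in any of the 5 tests of a difference between genotype effects. At most 0.00541% of all genes passed in each. An unadjusted p under 0.05 was reached by 2 of 10 in the test of age in CN10 (7.84% of all genes), by 1 of 10 in each test of SC against CN3/4 (6.18% of all genes at P56 and 6.97% at P112) and by 0 of 10 in the tests of age in CN3/4 and SC. DESeq2 was not run on them.

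Per3 was at 20.9, 24.7 and 35.8 CPM in CN10 P56 wild type and at 18.9, 13.8 and 16.5 in mSOD, without overlap (log2 change −0.72 ± 0.44, edgeR adjusted p = 0.4729). In CN12 at P112 the order was opposite, with 4.97, 3.31 and 2.10 CPM in wild type and 6.14, 10.1 and 6.57 in mSOD (1.17 ± 0.54, edgeR adjusted p = 1). Per2, the least abundant of the 10 genes by RPKM, ranged from −0.44 to 0.37 over the 7 comparisons. Bmal1, the activator, came nearest in CN10 at P56, at 9.78, 6.69 and 12.6 CPM in wild type and 21.3, 11.4 and 25.7 in mSOD (1.01 ± 0.50, edgeR adjusted p = 0.3768). Its mean effect was 0.21 (−0.17 to 0.60).

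**Figure D2:**
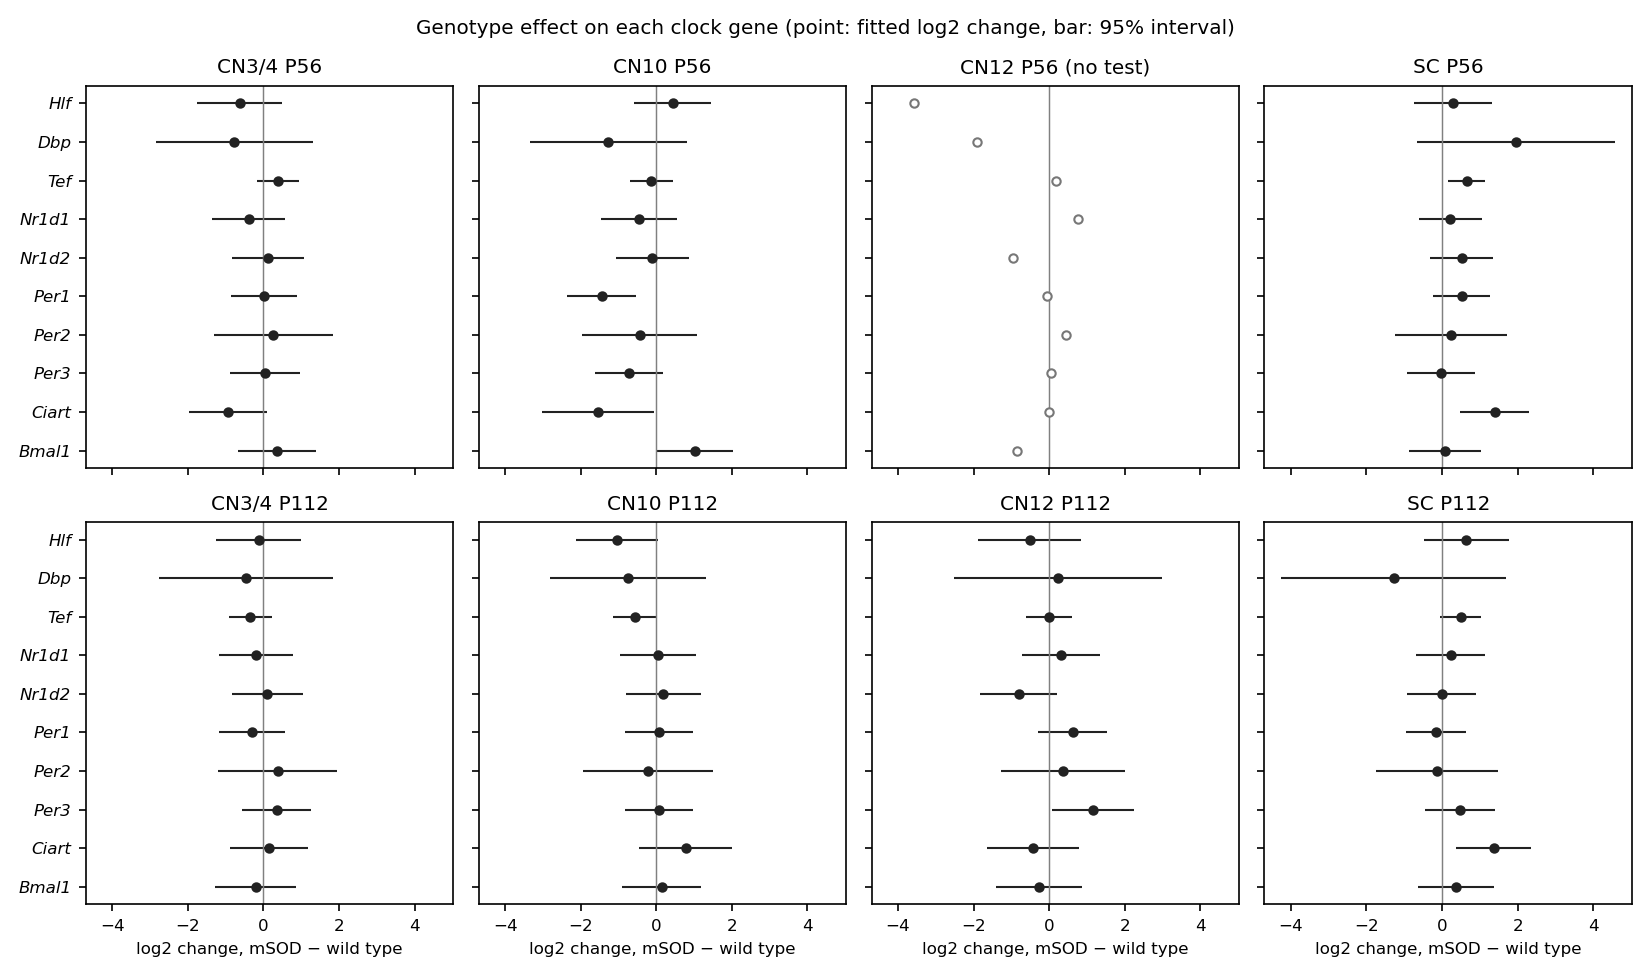
Log2 difference of mSOD from wild type for the 10 clock genes in the 8 combinations of nucleus and age, with 95% intervals of the edgeR fit where a test applied. Intervals cross 0 for all but 6 of the 70 tested pairs, and Ciart lies on opposite sides of 0 in CN10 P56 and SC P56.

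The balance of output genes against Bmal1 was computed for each library as the mean log2 CPM of Dbp, Nr1d1, Nr1d2, Per1, Per2, Per3, Ciart and Tef minus that of Bmal1, as a description with no test. In CN10 at P56 it ran from −0.52 to 0.42 in wild type and from −2.13 to −1.07 in mSOD, which did not overlap. In the other 7 combinations the genotypes overlapped, for example −1.21 to 2.98 against −0.32 to 1.97 in SC at P56 and −0.86 to 0.04 against −0.35 to 0.59 in CN12 at P56. The highest value, 2.98, came from a wild-type SC library with 1 count of Bmal1 (0.431 CPM).

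Further genes of the loop did not pass the test between genotypes either. A list of 18 other clock genes (Clock, the Cry and kinase genes and others) had 17 tested, and 0 passed in any of the 7 comparisons or in the mean effect. Their median log2 change lay between −0.08 and 0.10. Among 12 glucocorticoid-responsive genes, a list that includes Per1, the metallothionein Mt1 rose in SC at P56 (129 ± 21.4 CPM in wild type and 272 ± 102 in mSOD, SD over 5 libraries each, log2 change 0.98 ± 0.23, edgeR adjusted p = 0.03153), and none passed in the other 6 comparisons. Of 16 immediate early genes, which follow neuronal activity, 14 were tested and 0 passed in any.

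Among the 10 genes, as among all genes, the clearest differences lay between nuclei. They were tested in wild-type mice at both ages together (6 libraries for each cranial nucleus, 10 for SC). At each age 3 of the 5 wild-type SC libraries were P6362, a project with no cranial library. The comparisons with SC therefore rest on the project term of the fit, whose P6362 part was estimated within SC alone. Ciart was low in CN10 and CN12, Per3, Hlf and Dbp were high in CN10, and Nr1d2 was low there. Between CN10 and SC, 5 of 10 genes passed while 37.7% of all genes did, and between CN3/4 and CN10 5 of 10 with 37.9% of all genes. The counts were 1 of 10 between CN3/4 and SC (15.5% of all genes), and, with Hlf left out, 1 of 9 between CN12 and SC (6.15%), 3 of 9 between CN3/4 and CN12 (8.8%) and 2 of 9 between CN10 and CN12 (29.9%). These counts lay on both sides of the shares of all genes, and whether they differ from those shares was not tested. The 6 comparisons share libraries and are not independent of each other. DESeq2 gave the same counts except for 3 of 9 between CN10 and CN12.

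Ciart, the repressor with 3 E-boxes in its upstream window, was lowest in CN10. Its wild-type values there were 3.54, 1.34 and 0.949 CPM at P56 and 2.19, 2.55 and 2.07 at P112. In CN12 they were 4.92, 3.51, 2.61, 4.42, 6.62 and 4.51 CPM, in CN3/4 18.4, 14.1, 14.7, 15.3, 14.6 and 9.14, and in SC they ran from 0.619 to 27.9 with a mean of 10.6 ± 7.41 (SD, n = 10). By project, the wild-type SC means at P56 were 13.2 CPM in P11355 and 7.95 in P6362. At P112 they were 20.3 CPM in P10814 and 4.86 in P6362. All CN3/4 libraries lay above all CN10 and CN12 libraries. Ciart was lower in CN10 than in CN3/4 (CN3/4 over CN10, log2 difference 2.73 ± 0.41, adjusted p = 3.01e-07) and than in SC (−2.69 ± 0.43, adjusted p = 7.058e-07), both in edgeR's test. It was also lower in CN12 than in CN3/4 (CN3/4 over CN12, 1.70 ± 0.38, adjusted p = 0.001636) and than in SC (−1.65 ± 0.41, adjusted p = 0.005741). The CN12 and SC difference was −1.25 with an adjusted p of 0.05947 when SC P112 wild-type replicate 1 was left out. CN3/4 and SC were not separated (0.04, 95% interval −0.74 to 0.82). Between CN10 and CN12 Ciart fell just short of passing (−1.03, edgeR adjusted p = 0.05738). It passed there in 4 of 18 other settings. Those were DESeq2, the mSOD libraries, and the fits without CN10 P56 wild-type replicate 1 or CN12 P56 wild-type replicate 3.

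Per3, the Period gene with 2 D-boxes upstream, was highest in CN10. Wild-type CN10 libraries held 20.9, 24.7, 35.8, 26.5, 38.6 and 15.9 CPM, and CN3/4 libraries 12.8, 12.4, 10.9, 17.0, 15.7 and 7.58. CN12 libraries held 7.67, 4.91, 5.21, 4.97, 3.31 and 2.10 CPM, and SC libraries 2.32 to 11.8 with a mean of 6.99 ± 2.99 (SD, n = 10). The CN10 values stood above every CN12 and SC value. Per3 was higher in CN10 than in CN12 (log2 difference 2.56 ± 0.34, edgeR adjusted p = 4.389e-08), SC (1.91 ± 0.36, adjusted p = 2.395e-05) and CN3/4 (CN3/4 over CN10, −1.09 ± 0.32, adjusted p = 0.005494). It was higher in CN3/4 than in CN12 (1.48 ± 0.35, adjusted p = 0.0024), and CN3/4 and SC did not differ past the threshold (0.82, adjusted p = 0.119).

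The PAR bZIP factors split by nucleus too. Hlf was at 11.5 to 19.9 CPM in all 6 wild-type CN10 libraries, against 2.48 to 8.15 in SC, without overlap (log2 difference 1.58 ± 0.42, edgeR adjusted p = 0.002694). In CN3/4 it was at 2.04 to 12.2 CPM, lower than in CN10 (−1.39 ± 0.38, adjusted p = 0.002753). Against CN12 it was compared only at P112, where the 3 wild-type CN12 values of 2.27 to 3.59 CPM lay under the 11.5 to 18.7 of CN10 (2.42, edgeR adjusted p = 0.00182). Dbp was also higher in CN10, at 1.66 to 7.39 CPM against 0 to 1.20 in CN12 (2.48 ± 0.81, adjusted p = 0.01336) and 0 to 2.48 in SC (2.45 ± 0.93, adjusted p = 0.03626), on few counts. Without CN10 P112 wild-type replicate 1 the CN12 difference of Dbp had an adjusted p of 0.05483, and the SC difference missed the threshold in 6 of 16 fits that each left out 1 library (highest adjusted p = 0.1555, without SC P56 wild-type replicate 1). Tef was higher in CN3/4 than in CN10 (0.68 ± 0.20, edgeR adjusted p = 0.005579), with 22.7 to 53.3 against 18.2 to 28.5 CPM. Its calls in CN3/4 over SC (0.61, adjusted p = 0.04405) and over CN12 (0.61, adjusted p = 0.04644) lay at the threshold, and were lost in 5 of 16 and 9 of 12 such fits.

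Nr1d2 was at 13.6 to 59.5 CPM in wild-type CN10, at 39.2 to 155 in CN3/4 and at 29.4 to 183 in SC. It was lower in CN10 than in SC (−1.37 ± 0.36, edgeR adjusted p = 0.001836) and than in CN3/4 (CN3/4 over CN10, 1.399 ± 0.34, adjusted p = 0.0009938). Per1, Per2, Nr1d1 and Bmal1 passed in none of the 6 comparisons of wild-type nuclei. Bmal1, whose protein activates the others, had means of 7.75 ± 2.38 CPM in CN3/4, 9.48 ± 2.74 in CN10, 9.01 ± 3.89 in CN12 (n = 6 each) and 8.81 ± 4.90 in SC (n = 10), and the fitted differences lay between −0.30 and 0.12. Marker lists were unequal between nuclei too. Besides the lower motor neuron sum of CN10, the 12 oligodendrocyte markers summed to 105 to 209 CPM there and to 143 to 997 in the other nuclei, and 8 of them were called lower and 1 higher in wild-type CN10 than in SC. The 12 astrocyte markers summed to 372 to 686 CPM in CN10, against 840 to 1355 in CN3/4, 1082 to 1798 in CN12 and 665 to 1771 in SC, but 4 of them were called higher and 2 lower in CN10 than in SC, with a median log2 difference of 0.57. The microglial sum was 18.6 to 52.5 CPM in CN10, 6.87 to 28.1 in CN3/4, 10.7 to 42.6 in CN12 and 0 to 114 in SC. The part of this in the nucleus differences was not tested.

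**Figure D3:**
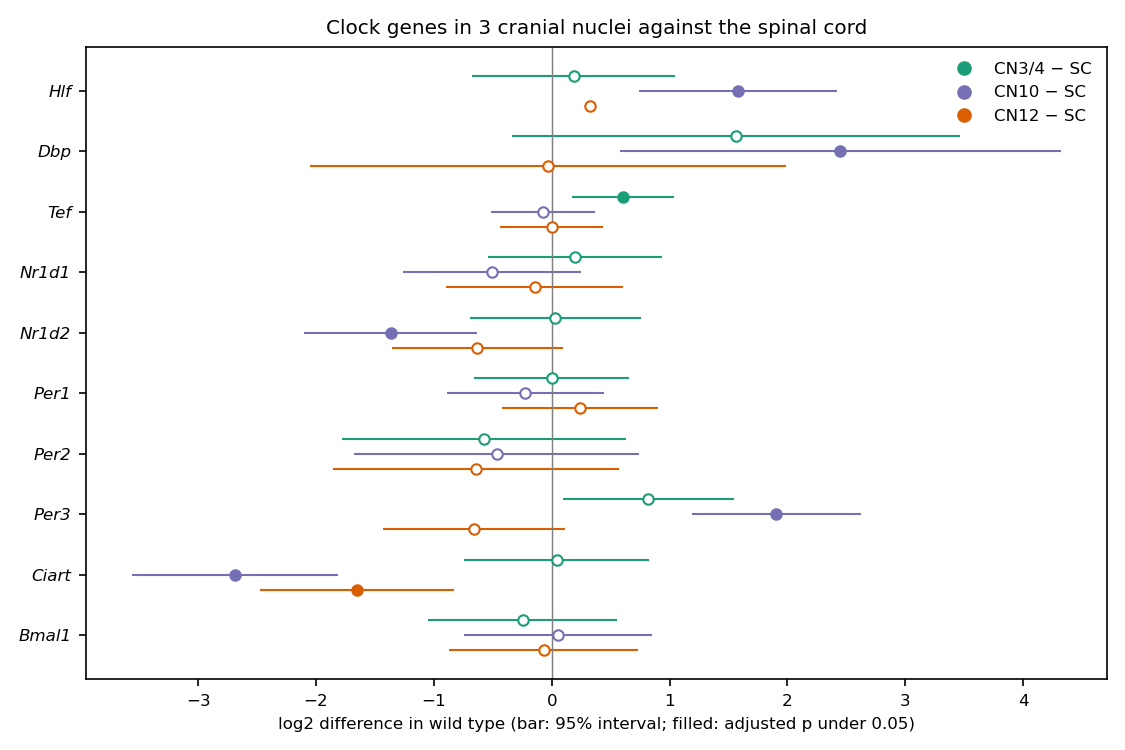
Log2 difference of each cranial nucleus from SC for the 10 clock genes in wild type, with 95% intervals of the edgeR fit where a test applied. Ciart lies below 0 in CN10 and CN12, and Per3, Hlf and Dbp lie above 0 in CN10.

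The mSOD libraries, a separate set of mice, were compared in the same way after the wild-type results had been seen. Ciart was again lower in CN10 than in SC (−4.45, edgeR adjusted p = 2.806e-10; 31.9% of all genes passed) and than in CN3/4 (CN3/4 over CN10, 2.72, adjusted p = 9.674e-07; 38.6% of all genes), and lower in CN12 than in SC (−3.24, adjusted p = 2.791e-06; 15.6% of all genes). Per3 was again higher in CN10 than in SC (1.36, adjusted p = 0.006422) and CN12 (1.63, adjusted p = 0.0001256; 37.1% of all genes), and Nr1d2 lower in CN10 than in CN3/4 (CN3/4 over CN10, 1.48, adjusted p = 0.0005534). Hlf was higher in CN10 than in CN3/4 (CN3/4 over CN10, −1.47, adjusted p = 0.002125), but not past the threshold against SC (0.81, adjusted p = 0.1866), where the CN10 values ran from 6.30 to 32.1 CPM and those of SC from 4.20 to 13.2. Per1 was lower in CN10 than in SC (−1.10, adjusted p = 0.01569) and CN12 (−1.43, adjusted p = 0.0002903) in mSOD. In wild type the same differences were −0.22 (adjusted p = 0.6371) and −0.46 (adjusted p = 0.2747), and whether they differ between genotypes was not tested. Some wild-type calls were not met in mSOD. Per3 did not pass between CN3/4 and CN10 (−0.57, adjusted p = 0.1556), nor Dbp between CN10 and SC (1.10, adjusted p = 0.4532). Between CN10 and CN12, 7 of 9 genes passed (37.1% of all genes). Among them were Bmal1 (1.25, edgeR adjusted p = 0.008004) and Nr1d1 (−1.09, adjusted p = 0.0121), which had passed in no comparison of wild-type nuclei. Between CN3/4 and SC Ciart alone passed (−1.73, adjusted p = 0.007716; 7.46% of all genes), while Tef, called in wild type, did not (0.06, adjusted p = 0.9528), and between CN3/4 and CN12 Tef, Nr1d2, Per3 and Ciart did (4 of 9; 26.4% of all genes).

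Other clock genes also differed between wild-type nuclei. Of the 17 tested, 12 passed between CN10 and SC (3 higher and 9 lower in CN10; 37.7% of all genes passed) and 11 between CN3/4 and CN10 (7 higher and 4 lower in CN3/4; 37.9% of all genes). The kinase gene Wee1 was lower in CN10 than in SC (log2 difference −2.75, edgeR adjusted p = 3.269e-09), as was the repressor gene Bhlhe40 (−2.31, adjusted p = 1.5e-06). Cry1 was higher (3.08, adjusted p = 0.001872) and Cry2 lower (−0.59, adjusted p = 0.01791), although both encode partners of the Period proteins. Usp2, a deubiquitinase gene and a rhythmic output, was higher in CN3/4 than in CN10 (3.09, adjusted p = 9.673e-14) and than in SC (1.79, adjusted p = 2.132e-06). Clock, the partner of Bmal1, was higher in CN3/4 than in CN10 (0.89, adjusted p = 0.0006382). Nfil3, whose protein competes for D-boxes, was lower in CN3/4 than in SC (−2.25, adjusted p = 0.006463) and CN10 (−2.20, adjusted p = 0.001178).

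Age was compared only within SC wild type, where both ages hold P6362 libraries. None of the 10 genes passed between P56 and P112 (edgeR, 0% of all genes called; DESeq2 also 0 of 10). Per1 had the lowest p-value and the 1 unadjusted p under 0.05, at 6.25, 12.8, 11.2, 10.1 and 16.04 CPM at P56 and 6.81, 18.7, 32.9, 31.9 and 26.5 at P112 (log2 change 0.92 ± 0.38, edgeR adjusted p = 0.459). The groups overlapped.

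With the group means in the fit, 2 of 10 genes passed the test of project, a share close to the 17.1% of all genes that passed. They were Nr1d1 (edgeR adjusted p = 0.03233) and Nr1d2 (adjusted p = 0.01978), in opposite directions. In SC, Nr1d1 had a median of 4.17 CPM in the 3 P11355 libraries (4.08 to 8.58), 10.1 in the 3 P10814 libraries (8.52 to 14.9) and 12.96 in the 12 P6362 libraries (4.31 to 36.3). Nr1d2 had medians of 106.9 (94.8 to 183), 56.6 (44.8 to 91.8) and 62.0 CPM (29.4 to 93.3) in the same order. The P11355 libraries were thus low in Nr1d1 and high in Nr1d2, with log2 differences from P10814 of −1.29 ± 0.46 and 1.18 ± 0.44. Hlf was at 6.82 to 13.2 CPM in the 3 P11355 libraries, 3.07 to 4.33 in P10814 and 2.48 to 7.49 in P6362, and did not pass the test of project (edgeR adjusted p = 0.3637). The count of members called was 0 without SC P56 wild-type replicate 1 or CN12 P112 mSOD replicate 3, and 1 without SC P56 wild-type replicate 5, CN12 P112 mSOD replicate 2 or SC P112 mSOD replicate 2. Clock, Rora, Bhlhe41 and Wee1 passed the same test among the other clock genes. Whether a project stands for a day or hour of sampling is not stated, so its part in these values was not tested.

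**Figure D4:**
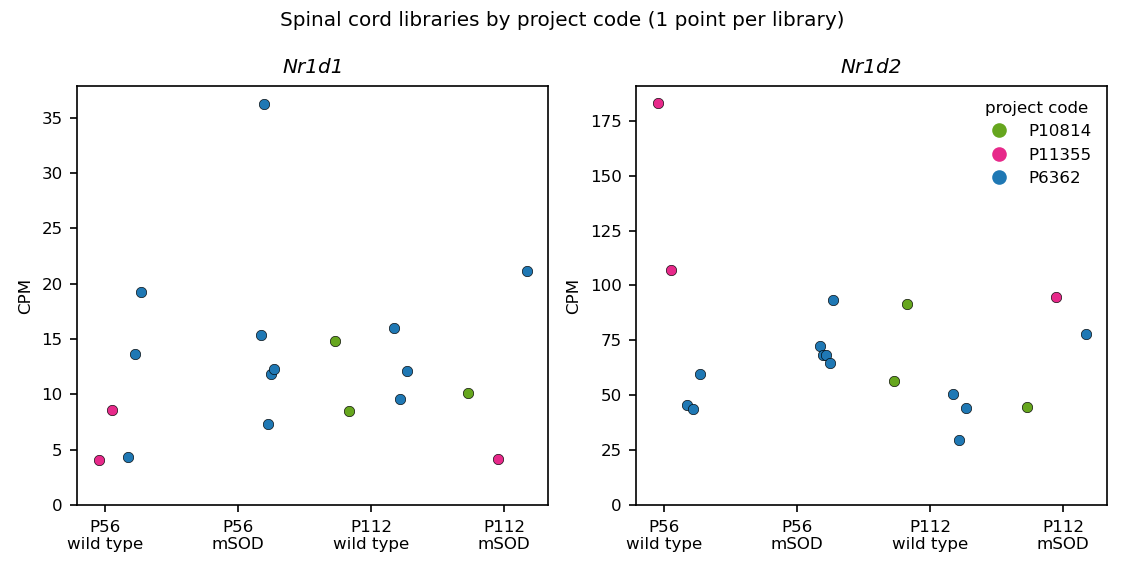
Level of Nr1d1 and Nr1d2 in the 18 SC libraries by group and project (points, linear CPM axis). All 3 P11355 libraries lie above all others for Nr1d2, and they hold low values of Nr1d1, at 4.08 to 8.58 CPM.

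Co-variation among libraries of 1 group was measured as the correlation of deviations of log2 CPM from the group mean, over the 48 libraries outside CN12 P56. Of the 45 pairs, 22 correlations were positive and 23 negative, with a median of −0.001 and a range of −0.407 (Tef and Nr1d2) to 0.612 (Hlf and Nr1d2). Bmal1 had r = 0.018 with Dbp, 0.128 with Nr1d1, 0.263 with Nr1d2 and −0.387 with Tef, and between −0.100 and −0.118 with the Period genes and Ciart. Dbp and Tef, which peak together in rhythmic tissues, had r = −0.024, Nr1d1 and Nr1d2 −0.242, and Per1 and Per2 0.233. Over the 54 libraries Dbp had a median of 3 counts and Per2 of 9.5. The part of counting error in their correlations was not tested.

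The pair of Hlf and Nr1d2 was the only one that passed (Pearson r = 0.612, permutation p = 0.00035, adjusted over 45 pairs 0.0157; Spearman rho = 0.577, permutation p = 0.00088, adjusted 0.0396). Without the 2 libraries farthest from the Hlf median r was 0.548. It did not pass over all 54 libraries (r = 0.514, adjusted p = 0.0634 by permutation), with deviations taken from group and project means (r = 0.516, adjusted p = 0.19 by permutation), or in 4 of the 48 sets that left out 1 library. Those were the sets without CN3/4 P56 wild-type replicate 1 (r = 0.529, adjusted p = 0.0652 by permutation), CN3/4 P112 mSOD replicate 2, and CN10 P112 wild-type replicates 2 and 3. Both genes also varied with marker sums: over the same 48 libraries the astrocyte marker sum had r = −0.422 with Hlf and −0.654 with Nr1d2, and the inhibitory interneuron sum 0.478 and 0.564. These are descriptions with no test. Libraries may share animals, which the labels do not tie to libraries.

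**Figure D5:**
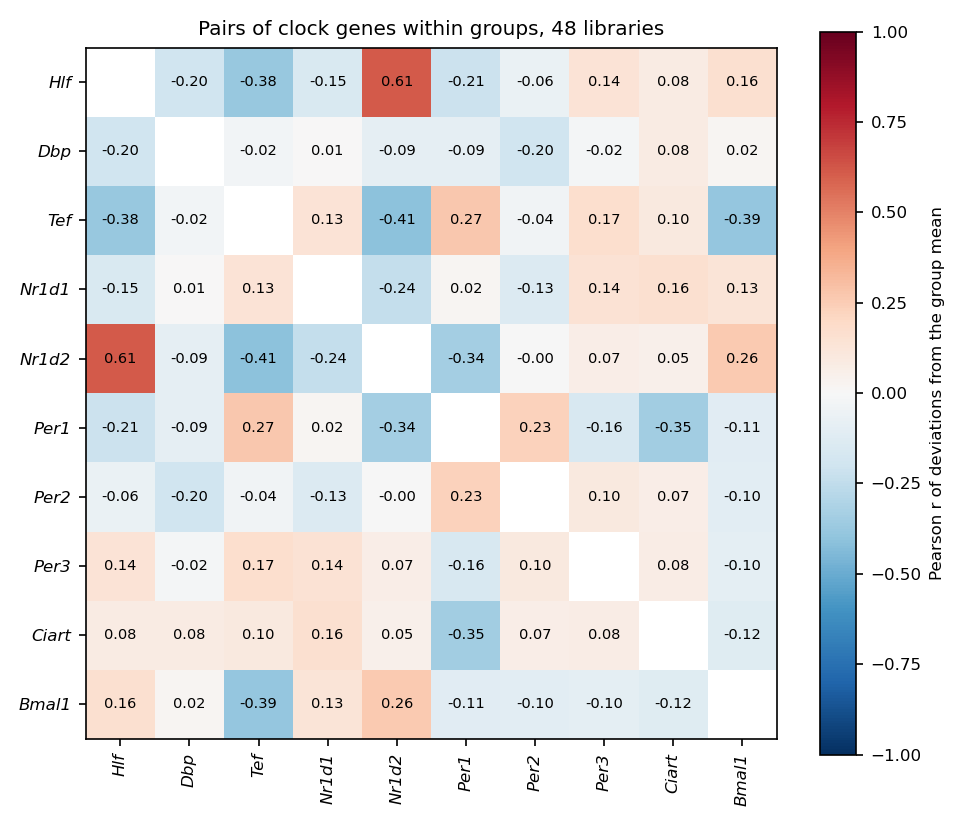
Pearson correlation of within-group deviations for the 45 pairs of clock genes over 48 libraries, with colour from −1 to 1. Positive and negative values are mixed in every row, and Hlf with Nr1d2 at 0.61 stands apart.

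Among all tested genes, Nr1d2 ranked 21 of 18492 in likeness to Hlf, and Clock 511 (r = 0.495), while Dbp ranked 13594 and Tef 16759. In the other direction, Hlf came at the top 6.8% of genes in likeness to Nr1d2, behind Clock at the top 1.72% (r = 0.775) and Rora at the top 5.71% (r = 0.64). The 5 genes most like Hlf over the 48 libraries, among 12324 genes with a mean of at least 5 CPM, were Smim17 (r = 0.681), Ubl3 (0.671), Oxr1 (0.657), Max (0.649) and Usp15 (0.648). The 5 most like Dbp, itself on few counts, were Tmem128 (0.666), Tspan31 (0.657), Gm5931 (0.653), Gm12335 (0.647) and Gm14176 (0.639). None of the 10 clock genes was in either list.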

How the data were processed

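RNA was measured in 54 Smart-seq2 libraries without molecular identifiers. The authors deposited a table of read counts per gene, as whole numbers without normalization, and a table of RPKM values, which they scaled to gene length and library size. Alignment used STAR 2.7.0e and build mm39 (GRCm39), per the submitters' processing notes. The counting program, the annotation and the use of strand are not given in the sources used here. Depth was 1071477 to 8877994 counts, and counts near 0, as for Dbp, carry little precision. The labels name replicates as biological but do not tie libraries to animals, so replicates were numbered in accession order and p-values measure the spread between libraries.

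All 54 libraries entered 1 edgeR quasi-likelihood fit (edgeR 4.0.16, limma 3.58.1, R 4.3.3) with 16 group means, a project term, TMM factors (0.847 to 1.12) and the filterByExpr filter, which left 18493 mouse genes (common dispersion 0.113). The SOD1 entry, taken as the human transgene, was left out of the tests. P-values are two-sided and adjusted by Benjamini-Hochberg over all genes tested, and a gene passed at an adjusted p under 0.05. CPM values are counts scaled to the library total multiplied by its TMM factor, not to the total alone. The contrast in CN12 at P56 was not tested, nor was Hlf in comparisons of CN12 with other nuclei at both ages, because those libraries chose it. Correlations used log2 CPM with a prior count of 2 and 100000 permutations within groups. Python 3.11.15 with numpy 2.4.6, pandas 2.3.3, scipy 1.17.1 and matplotlib 3.10.9 served for these and for figures. Upstream sequences came from RefSeq (GRCm38.p6) by symbol, and exon overlaps from the GENCODE release M21 annotation by identifier.

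The members, the gene lists and the tests were chosen with earlier results of these data known. The genes named are the 10 members, other clock genes that passed a test (1 is not reported here), Mt1, chosen as the 1 gene of its list that passed, and the 5 genes most like Hlf and Dbp. On simulated counts for SC at P112 (17526 genes), the fit recovered 100 of 100 genes changed 8-fold and 95 of 100 changed 4-fold, with 6 false calls. Changes were planted only in genes more abundant than Dbp and Per2 (mean log2 CPM 0.94 and 1.87), with no other difference between groups. Changes under 4-fold and the cranial nuclei were not tried, so the check does not cover most of the genotype comparisons. Alternatives were DESeq2 1.42.0, RLE size factors, no filter, no project term, only the groups compared, 1 project, P112 alone, each library left out in turn and, for correlations, another prior count and other sets of libraries.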

Additional observations from a re-analysis of the deposited data

Results flagged for a closer look

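Dbp in SC P56 wild type was set apart by 1 library, replicate 5, at 1.43 CPM, where the other 4 lay between 0 and 0.220 CPM. The gap to the next value was 0.728 of the whole range, above Dixon's limit of 0.710 for 5 libraries. It was the only one of 30 gene and group combinations past that limit, and chance flags about 1 in 20 groups. All 30 were in SC groups of 5 libraries, since smaller groups were not examined.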

How the results depend on the processing

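No difference that had passed changed sign under any setting. Some that had not passed did, such as Ciart in CN10 at P112, whose log2 change ran from −0.62 to 1.22. In the 7 genotype comparisons, their mean and the age comparison, the count of clock genes called was 0 under every setting and in every fit that left out 1 library (0 to 0). The lowest adjusted p reached for a genotype difference in edgeR's test was 0.05803, for Ciart in SC at P56 within project P6362, followed by 0.06583 for Tef in SC at P56 with no project term. With P112 alone the counts were 0 for CN3/4 and SC (5.13% of all genes), 3 for CN10 and SC (22.2%), 0 for CN12 and SC (0.643%), 1 for CN3/4 and CN12 (3.64%), 1 for CN10 and CN12 (16.1%, Hlf left out) and 2 for CN3/4 and CN10 (23.2%). With no filter on low counts CN3/4 and SC gave 0. With no project term, some genes that had not passed against SC did so in wild type. They were Per3 for CN3/4, and Nr1d1 and Per1 for CN10. In mSOD libraries, an alternative chosen after seeing the data, CN12 and SC gave 2 (15.6% of all genes) and CN10 and CN12 gave 7 (37.1%). Leaving out 1 library gave 0 to 1 for CN3/4 and SC, 4 to 5 for CN10 and SC, 0 to 1 for CN12 and SC, 2 to 3 for CN3/4 and CN12, 1 to 3 for CN10 and CN12, 5 to 5 for CN3/4 and CN10, 0 to 3 for project and 0 to 1 for correlated pairs. The Hlf difference in CN12 at P56 ran from −4.18 to −1.93. The count of correlated pairs was 0 over all 54 libraries and 0 with deviations from group and project means. Fewer libraries enter at P112; for the other settings the cause was not tested. No paired analysis was possible because the labels carry no replicate numbers. Dbp had 0 counts in 11 libraries, so its values carry a wide counting error.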
